A study of Mus musculus with 4 samples.

Results

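Imprinted genes outside the H19-Igf2 domain were followed in primary mouse oligodendrocytes that lack the long noncoding RNA lncOL1. The 37 genes were taken by symbol from the per-library expression tables, which list 23444 gene symbols. Of these genes, 36 were found under their own symbol, and Nespas was found under Nespos, a synonym in the RefSeq gene table. Members on the same chromosome that lie within 3 Mb of each other were treated as a cluster, which gave 16 clusters, 10 of them with more than 1 member. By allele, 22 are known in mouse as paternally expressed and 13 as maternally expressed, some of them only in certain tissues. In the other 2, Grb10 and Gnas, the active allele differs between cell types or transcripts.

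The lncOL1KO group held 2 libraries with the genotype lncOL1-/-. The Ctrl group held 2 libraries whose label names lncOL1+/+ as well as lncOL1+/- without saying which library is which. All 4 libraries came from precursor cells differentiated in culture for 1 day with T3, a thyroid hormone, and the labels give a mixed genetic background for all. The labels tie no library to an animal or a culture of its own. The p-values therefore cover the spread among these 4 samples and no more, and that spread may be technical.

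Genomic imprinting restricts a gene's expression to the copy inherited from one parent. Imprinted genes sit in clusters, and each cluster is governed by a control region whose DNA methylation was set in the egg or the sperm. Many clusters pair protein-coding genes with a long noncoding RNA from the opposite parental chromosome, and in several of them that RNA silences its neighbours. In the nervous system imprinted genes are known mainly for roles in growth, feeding behaviour and neurodevelopmental disease, among them Prader-Willi and Angelman syndromes. These libraries measure total RNA of each gene and do not tell the parental alleles apart, so a level says nothing of whether imprinting was kept.

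Levels are given in FPKM, a fragment count divided by transcript length and by the library's total, so that genes can be compared with one another. Read counts are not given, so the depth of each library is unknown. The knockout was visible in the targeted RNA, at 5.54 and 5.06 FPKM in lncOL1KO and 28.9 and 34.0 FPKM in Ctrl libraries. Between 11284 and 11357 genes reached 1 FPKM in a library, and the 11361 genes averaging 1 FPKM or more across libraries were tested together with limma on log2(FPKM + 1). Calls of higher or lower in lncOL1KO rest on a Benjamini-Hochberg adjusted p under 0.05. Each log2 fold change is a difference of log2(FPKM + 1), so it is smaller than the true change where levels are low. The culture carried the defining oligodendrocyte markers: 10 of 10 reached the 1 FPKM minimum. They summed to 8913 and 9090 FPKM in lncOL1KO and 10620 and 10690 FPKM in Ctrl libraries, with Mbp called lower. Precursor markers summed to 595.3 and 576.0 FPKM in lncOL1KO and 557.9 and 576.6 FPKM in Ctrl libraries, with 0 of 6 called by limma and 1 higher at an unadjusted p under 0.05. Astrocyte markers were also present, with a summed level of 728.3 and 693.5 FPKM in lncOL1KO and 778.9 and 735.0 FPKM in Ctrl libraries, and 7 of 8 reached the minimum. None of these was called by limma, and 1 was lower at an unadjusted p under 0.05. In bulk RNA, fewer cells of a type and less RNA per cell cannot be told apart.

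Of the 37 imprinted genes, Meg3 and Ipw rose. Meg3, the maternally expressed RNA at the head of the Dlk1-Dio3 cluster, and Ipw, a paternally expressed RNA of the Prader-Willi region, were called higher in lncOL1KO, with log2 fold changes of 0.67 and 0.73. Of 24 tested members 2 were called higher and 0 lower, against 0.528% and 0.783% of all genes tested. At an unadjusted p under 0.05, 5 members were higher and 0 lower, against 7.13% and 6.58% of all genes tested. The authors' deposited table calls 4 of its 25 tested members higher and 0 lower, against 1.74% and 4.04% of the genes it tested. Its 4 are Ipw, Meg3, Rian and Mest.

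Promoter windows listed for these 4 genes are shown because their RNAs stand apart from the rest of their clusters in the data that follow. RefSeq promoter windows (GRCm38.p6) hold 300 bases, 250 before and 50 after the start, and the start used for each gene is the first transcribed base of its row in the files. Capitals mark TGCCGC on either strand, the hexamer bound by ZFP57, a zinc finger protein known to protect methylated control regions. The windows are chr12:109540746-109541045 on the plus strand for Meg3, chr12:109603695-109603994 on the plus strand for Rian, chr7:59678829-59679128 on the minus strand for Ipw and chr6:30733256-30733555 on the plus strand for Mest.
Meg3: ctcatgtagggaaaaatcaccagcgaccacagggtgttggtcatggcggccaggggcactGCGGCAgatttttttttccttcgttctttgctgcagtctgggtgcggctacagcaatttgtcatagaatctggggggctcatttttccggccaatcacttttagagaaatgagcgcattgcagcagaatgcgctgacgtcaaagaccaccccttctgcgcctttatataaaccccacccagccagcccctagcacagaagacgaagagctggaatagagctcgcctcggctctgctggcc
Rian: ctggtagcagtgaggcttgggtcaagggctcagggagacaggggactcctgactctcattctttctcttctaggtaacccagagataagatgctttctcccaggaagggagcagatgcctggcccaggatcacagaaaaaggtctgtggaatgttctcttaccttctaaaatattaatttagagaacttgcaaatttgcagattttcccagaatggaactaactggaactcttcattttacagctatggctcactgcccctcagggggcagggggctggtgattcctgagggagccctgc
Ipw: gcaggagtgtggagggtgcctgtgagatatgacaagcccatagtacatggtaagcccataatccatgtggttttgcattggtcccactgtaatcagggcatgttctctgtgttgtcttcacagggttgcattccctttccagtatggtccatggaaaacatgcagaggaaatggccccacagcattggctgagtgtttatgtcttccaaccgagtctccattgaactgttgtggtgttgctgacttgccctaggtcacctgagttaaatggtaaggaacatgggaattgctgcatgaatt
Mest: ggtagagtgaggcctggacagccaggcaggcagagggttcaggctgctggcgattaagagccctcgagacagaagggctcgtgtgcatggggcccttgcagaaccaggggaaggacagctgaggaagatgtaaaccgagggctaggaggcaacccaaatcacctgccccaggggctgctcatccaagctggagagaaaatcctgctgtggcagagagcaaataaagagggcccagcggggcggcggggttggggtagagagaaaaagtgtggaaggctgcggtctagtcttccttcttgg
The Meg3 window holds 1 hexamer and 13 CpG dinucleotides, and the Mest window 0 and 8. The Ipw window holds 0 hexamers and 1 CpG, and the Rian window 0 of either. A promoter was listed for 30 of the 37 members, and for 22 of them a listed start was the first base of the row. Of those 22 windows 6 hold the hexamer (Grb10, Commd1, Meg3, Copg2, Nap1l5 and Zim1), against 11.6% of 32851 windows in the table. Their median was 13 CpG per window, against 7 in all windows. A match is a description of letters and not a binding site, and Meg3 and Mest have further listed starts that were not used here. The Ipw row lies wholly within the longer gene Snhg14 on the same strand, and Rian starts downstream of Meg3 on the same strand. Whether the Ipw and Rian windows act as promoters was not tested.

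The Dlk1-Dio3 cluster lies on chromosome 12 (mm10), and its members span 109452823 to 109749457. Its maternal chromosome makes Meg3, Rian, a host of small nucleolar RNAs, and Mirg, a host of microRNAs. Its paternal chromosome makes Dlk1, a membrane protein related to Notch ligands, and Rtl1, a protein derived from a retrotransposon. Meg3 had 15.8 and 16.8 FPKM in lncOL1KO and 9.94 and 9.88 FPKM in Ctrl libraries. Both lncOL1KO libraries lay above both Ctrl libraries, and the gap was far wider than the spread within either group. The means were 16.3 ± 0.692 FPKM in lncOL1KO and 9.91 ± 0.0423 FPKM in Ctrl (SD, n = 2 each). The log2 fold change was 0.67 with SE 0.070 (limma adjusted p = 0.0113). With any 1 of the 4 libraries left out it was 0.63 to 0.71, and Meg3 was then no longer called (adjusted p from 0.0993 to 0.153). With no minimum level Meg3 also lost its call (adjusted p = 0.0635). The authors' deposited table gives 13.5 FPKM in ko and 8.92 FPKM in wt for Meg3, with q = 0.00379.

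Rian, which starts downstream of Meg3 on the same strand, had 9.38 and 9.35 FPKM in lncOL1KO and 5.98 and 7.39 FPKM in Ctrl libraries. The groups did not overlap, but the Ctrl libraries differed from each other, and the log2 fold change of 0.44 (SE 0.10) did not pass the limma test (adjusted p = 0.115). The authors' deposited table calls Rian, at 9.43 FPKM in ko and 7.03 FPKM in wt (q = 0.00326). The ratio of Meg3 to Rian was 1.69 and 1.80 in lncOL1KO and 1.66 and 1.34 in Ctrl libraries.

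The rest of the cluster was nearly silent. Mirg, at the distal end, had 0.303 and 0.340 FPKM in lncOL1KO and 0.378 and 0.190 FPKM in Ctrl libraries, with overlapping groups. Dlk1 had 0.419 and 0.216 FPKM in lncOL1KO and 0.472 and 0.454 FPKM in Ctrl libraries. Rtl1 had 0.0463 and 0.0402 FPKM in lncOL1KO and 0.0274 and 0.0125 FPKM in Ctrl libraries. These 3 members lay below the 1 FPKM minimum and were not tested, and levels this low carry little precision. Meg3 thus stood at 37.8 and 77.8 times the level of Dlk1 in lncOL1KO and 21.1 and 21.7 times in Ctrl libraries.

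Small RNA rows inside the clusters were almost all at 0. The spans of the 16 clusters hold 80 rows with a Mir or Snord name, 57 of them between Dlk1 and Mirg. Of the 80, 2 had any value above 0. The rows are short, and whether the libraries kept RNA of that size is not known here. A value of 0 therefore does not show that a small RNA was absent. Mir1188 lies within Rian, and its row of 120 bases was listed at 8.84 and 7.67 FPKM in lncOL1KO and at 0 in both Ctrl libraries. It passed the 1 FPKM minimum through the lncOL1KO libraries alone, so neither a fold nor a test is given, and the authors' deposited table does not call it (q = 0.776). Mir344-2, in the Prader-Willi region, was listed at 28.7 FPKM in lncOL1KO replicate 2 and at 0 in the other 3 libraries. Both rows are hairpins, so their values do not measure the mature microRNAs, and Mir344-2 rests on 1 library. The mature sequences from RefSeq (GRCm38.p6) identify the products of these hairpins, with the seed (bases 2 to 8) in capitals, and the 4 seeds differ from one another.
mmu-miR-1188-5p: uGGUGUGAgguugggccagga
mmu-miR-1188-3p: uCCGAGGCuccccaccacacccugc
mmu-miR-344-5p: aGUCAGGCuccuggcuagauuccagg
mmu-miR-344-3p: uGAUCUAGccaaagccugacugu

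The Prader-Willi and Angelman region on chromosome 7 spans 59228750 to 62420139 from Ube3a to Mkrn3. Its paternal chromosome makes a long transcript that starts at Snurf and Snrpn and runs on through Ipw toward Ube3a. Ube3a, a ubiquitin ligase lost in Angelman syndrome, is maternally expressed in neurons and biallelic in most other cells. Ipw had 19.2 and 20.7 FPKM in lncOL1KO and 10.7 and 12.5 FPKM in Ctrl libraries. The groups were well apart, with means of 19.9 ± 1.07 FPKM in lncOL1KO and 11.6 ± 1.27 FPKM in Ctrl (SD, n = 2 each). The log2 fold change was 0.73 with SE 0.092 (limma adjusted p = 0.0191). With any 1 of the 4 libraries left out it was 0.63 to 0.84, and Ipw was then no longer called (adjusted p from 0.0608 to 0.242). With no minimum level Ipw also lost its call (adjusted p = 0.103). The authors' deposited table gives 21.9 FPKM in ko and 12.96 FPKM in wt for Ipw, with q = 0.00034. Its row lies on the minus strand at 59619158 to 59678878, wholly within Snhg14, which GENCODE places at 59307924 to 59975759 on the same strand.

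Snrpn, which encodes a spliceosomal Sm protein, did not pass the test. It had 94.1 and 90.5 FPKM in lncOL1KO and 89.0 and 87.5 FPKM in Ctrl libraries (log2 fold change 0.06 with SE 0.067, limma adjusted p = 0.775). Relative to Snrpn, Ipw stood at 0.204 and 0.229 in lncOL1KO and 0.120 and 0.143 in Ctrl libraries. Snurf, the upstream reading frame of the same transcript, had 3.46 and 3.39 FPKM in lncOL1KO and 4.40 and 3.57 FPKM in Ctrl libraries (log2 fold change -0.17, limma adjusted p = 0.560). Snurf and Snrpn share 216 exonic bases in GENCODE, so the split of reads between them is uncertain.

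Ube3a had 19.8 and 18.9 FPKM in lncOL1KO and 19.2 and 20.8 FPKM in Ctrl libraries, with overlapping groups (log2 fold change -0.04, limma adjusted p = 0.881). Its exons share 1803 bases with Snhg14 on the other strand, and whether counting used strand is not stated, so sense and antisense reads cannot be told apart. Ndn, a MAGE family protein of postmitotic neurons and the most abundant distal gene, had 65.5 and 72.7 FPKM in lncOL1KO and 67.0 and 65.5 FPKM in Ctrl libraries (log2 fold change 0.06, limma adjusted p = 0.833). Mkrn3, a ring finger protein known for its part in the timing of puberty, had 3.60 and 4.30 FPKM in lncOL1KO and 3.76 and 3.66 FPKM in Ctrl libraries. Magel2, a further MAGE gene, was at or below 0.0720 FPKM in all 4 libraries.

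A second noncoding RNA of the region, which is not among the 37 and was singled out after its values were seen, also rose. A230057D06Rik, annotated as a long intergenic RNA between Snrpn and Ndn, had 5.33 and 5.03 FPKM in lncOL1KO and 2.05 and 2.90 FPKM in Ctrl libraries (log2 fold change 0.84 with SE 0.13, limma adjusted p = 0.0369). The authors' deposited table also calls it, with q = 1.89e-07. The limma call was lost with a minimum of 0.1 FPKM (adjusted p = 0.0589), with no minimum (0.153), and without Ctrl replicate 1 (0.139), lncOL1KO replicate 1 (0.240) or lncOL1KO replicate 2 (0.296). The 4 other unnamed transcripts of the region that were tested had log2 fold changes from -0.09 to 0.11, none called by limma. Among them C230091D08Rik (log2 fold change -0.09) and D7Ertd715e (0.09) lie, like Ipw, within the span of Snhg14.

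**Figure D1:**
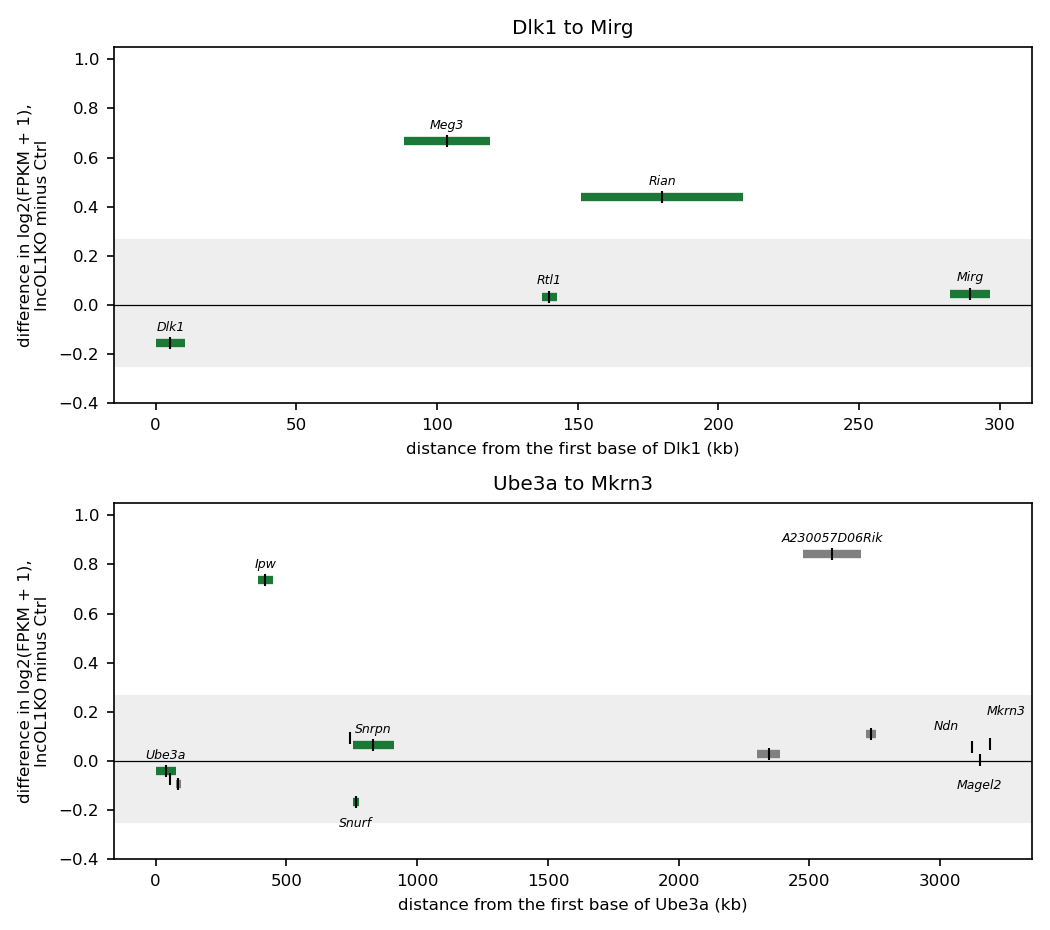
Difference in log2(FPKM + 1), lncOL1KO minus Ctrl, of each row with a value above 0 against distance in kb from the first base of Dlk1 (top) or Ube3a (bottom); green bars are members, grey bars other rows without small RNAs, bar length is the gene's span, black ticks are midpoints and the grey band holds the central 90% of all genes tested (-0.25 to 0.26). Meg3 and Rian stand above the band between Dlk1 and Mirg, and Ipw and A230057D06Rik stand above it while Ube3a, Snrpn and Ndn lie within it.

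Mest was the protein-coding member with the largest difference. It encodes a hydrolase-like protein of the endoplasmic reticulum, is paternally expressed and lies on chromosome 6 at 30733506 to 30748466, where its end meets the maternally expressed coatomer gene Copg2 on the other strand. Mest had 9.52 and 11.3 FPKM in lncOL1KO and 6.22 and 8.44 FPKM in Ctrl libraries. The groups did not overlap, but the gap between them was smaller than the spread within either, and the log2 fold change of 0.47 (SE 0.14) did not pass the limma test (adjusted p = 0.215), while the authors' deposited table calls it with q = 0.0111. The log2 fold change of Mest was 0.27 without Ctrl replicate 1 and 0.66 without Ctrl replicate 2. Copg2 had 16.1 and 15.2 FPKM in lncOL1KO and 14.8 and 14.9 FPKM in Ctrl libraries (log2 fold change 0.07, limma adjusted p = 0.740). The exons of this pair share 912 bases.

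The 3 genes of the Peg10 cluster on chromosome 6 had differences of both signs. Peg10, a retrotransposon-derived gene that is paternally expressed, had 9.38 and 9.75 FPKM in lncOL1KO and 7.66 and 8.31 FPKM in Ctrl libraries (log2 fold change 0.23, SE 0.075, limma adjusted p = 0.240). Sgce, which encodes epsilon-sarcoglycan from a start close to that of Peg10 on the other strand, had 17.5 and 17.6 FPKM in lncOL1KO and 18.9 and 18.7 FPKM in Ctrl libraries (log2 fold change -0.09, limma adjusted p = 0.622). Ppp1r9a, which encodes the actin-binding protein neurabin, had 8.96 and 8.11 FPKM in lncOL1KO and 9.06 and 9.21 FPKM in Ctrl libraries (log2 fold change -0.09, limma adjusted p = 0.704). In none of these genes did the groups overlap, yet no difference passed the test. Among all genes tested, both lncOL1KO libraries lay above both Ctrl libraries in 22.6% and below in 20.7%.

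Airn, the paternally expressed antisense RNA that silences Igf2r in many mouse tissues, showed the widest ratio of any member with a mean of at least 0.1 FPKM. It had 1.34 and 1.11 FPKM in lncOL1KO and 0.513 and 0.470 FPKM in Ctrl libraries, a mean 2.50 times as high in lncOL1KO. Its mean over the 4 libraries lay below 1 FPKM, so it was not tested with the others. With the minimum lowered to 0.1 FPKM its log2 fold change was 0.58 with a limma adjusted p = 0.0569, and the authors' deposited table gives q = 0.845. Igf2r, the receptor that clears insulin-like growth factor 2, had 9.06 and 8.52 FPKM in lncOL1KO and 8.68 and 8.11 FPKM in Ctrl libraries (log2 fold change 0.06, limma adjusted p = 0.822).

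**Figure D2:**
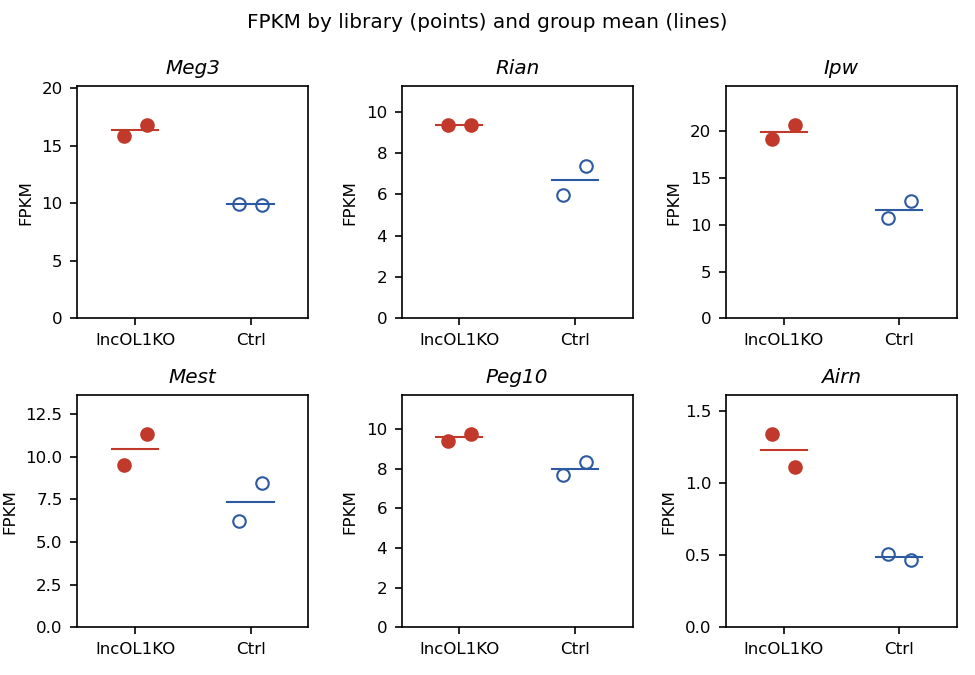
FPKM of 6 members in each library, with lncOL1KO (filled red) left of Ctrl (open blue); points are libraries, lines are group means and each axis starts at 0. The 6 shown are members in which both lncOL1KO points lie above both Ctrl points, so that feature follows from the choice. Of the 24 tested members 8 lay above and 4 below in this way, against 22.6% and 20.7% of all genes tested. In Mest the gap between groups is smaller than the spread within them.

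None of the most abundant imprinted genes passed the test. Gnas encodes the stimulatory G protein alpha subunit and, from other starts, the imprinted proteins XLalphas and Nesp55. It had 699.7 and 669.5 FPKM in lncOL1KO and 708.5 and 686.1 FPKM in Ctrl libraries, with overlapping groups (log2 fold change -0.03 with SE 0.070, limma adjusted p = 0.926). The row sums all Gnas transcripts, so a change in an imprinted form could be hidden by the biallelic one. Nespas, the paternally expressed antisense RNA of the locus, had 0.122 and 0.179 FPKM in lncOL1KO and 0.118 and 0.131 FPKM in Ctrl libraries. Its exons share 988 bases with those of Gnas on the other strand.

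Nnat, a small proteolipid of the endoplasmic reticulum made from the paternal copy within an intron of Blcap, had 326.3 and 341.2 FPKM in lncOL1KO and 353.2 and 325.3 FPKM in Ctrl libraries (log2 fold change -0.02, limma adjusted p = 0.944). Blcap, its host, had 18.2 and 16.4 FPKM in lncOL1KO and 16.8 and 17.3 FPKM in Ctrl libraries. Gatm, the first enzyme of creatine synthesis and imprinted in placenta, had 108.6 and 112.1 FPKM in lncOL1KO and 96.4 and 112.3 FPKM in Ctrl libraries (log2 fold change 0.08, limma adjusted p = 0.778). In each of these the groups overlapped.

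In the other host and nested gene pairs no member was called. Commd1, a regulator of copper handling, had 52.7 and 41.3 FPKM in lncOL1KO and 54.1 and 45.8 FPKM in Ctrl libraries, and Zrsr1, a retrogene within it, averaged 5.88 ± 0.0279 FPKM in lncOL1KO and 6.13 ± 0.117 FPKM in Ctrl (SD, n = 2 each). The exons of this pair share 412 bases. Trappc9, a trafficking complex subunit, had 27.0 and 28.4 FPKM in lncOL1KO and 26.4 and 26.7 FPKM in Ctrl libraries. Peg13, a noncoding and paternally expressed RNA inside Trappc9, had 12.3 and 13.003 FPKM in lncOL1KO and 12.4 and 11.5 FPKM in Ctrl libraries. Its log2 fold change was 0.08 (SE 0.075, limma adjusted p = 0.734). Peg13 was thus a noncoding member of a mean level near that of Meg3 whose groups overlapped.

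Nap1l5, a retrogene related to nucleosome assembly proteins within Herc3, had 43.2 and 41.4 FPKM in lncOL1KO and 42.1 and 41.6 FPKM in Ctrl libraries (log2 fold change 0.01, limma adjusted p = 0.964). Impact, a translational regulator that limits activation of the kinase Gcn2, had 18.16 and 17.96 FPKM in lncOL1KO and 18.13 and 18.96 FPKM in Ctrl libraries (log2 fold change -0.04, limma adjusted p = 0.890). Peg3, a zinc finger protein and repressor, had 14.6 and 13.6 FPKM in lncOL1KO and 14.2 and 13.4 FPKM in Ctrl libraries (log2 fold change 0.03, limma adjusted p = 0.924). Its neighbours Usp29 and Zim1 were at or below 0.199 FPKM in all 4 libraries. The groups overlapped in Nap1l5, Impact and Peg3.

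Several imprinted growth regulators were hardly expressed. Plagl1, a zinc finger factor known to control other imprinted genes in mouse, had 0.369 and 0.515 FPKM in lncOL1KO and 0.393 and 0.304 FPKM in Ctrl libraries. Grb10, an adaptor that restrains insulin signalling, had 0.339 and 0.503 FPKM in lncOL1KO and 0.509 and 0.298 FPKM in Ctrl libraries. Kcnq1ot1, the silencing RNA of the Kcnq1 domain, had 0.245 and 0.243 FPKM in lncOL1KO and 0.223 and 0.236 FPKM in Ctrl libraries. Phlda2 and Slc22a18, maternally expressed genes of that domain best known in placenta, were listed at 0 in all 4 libraries.

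**Figure D3:**
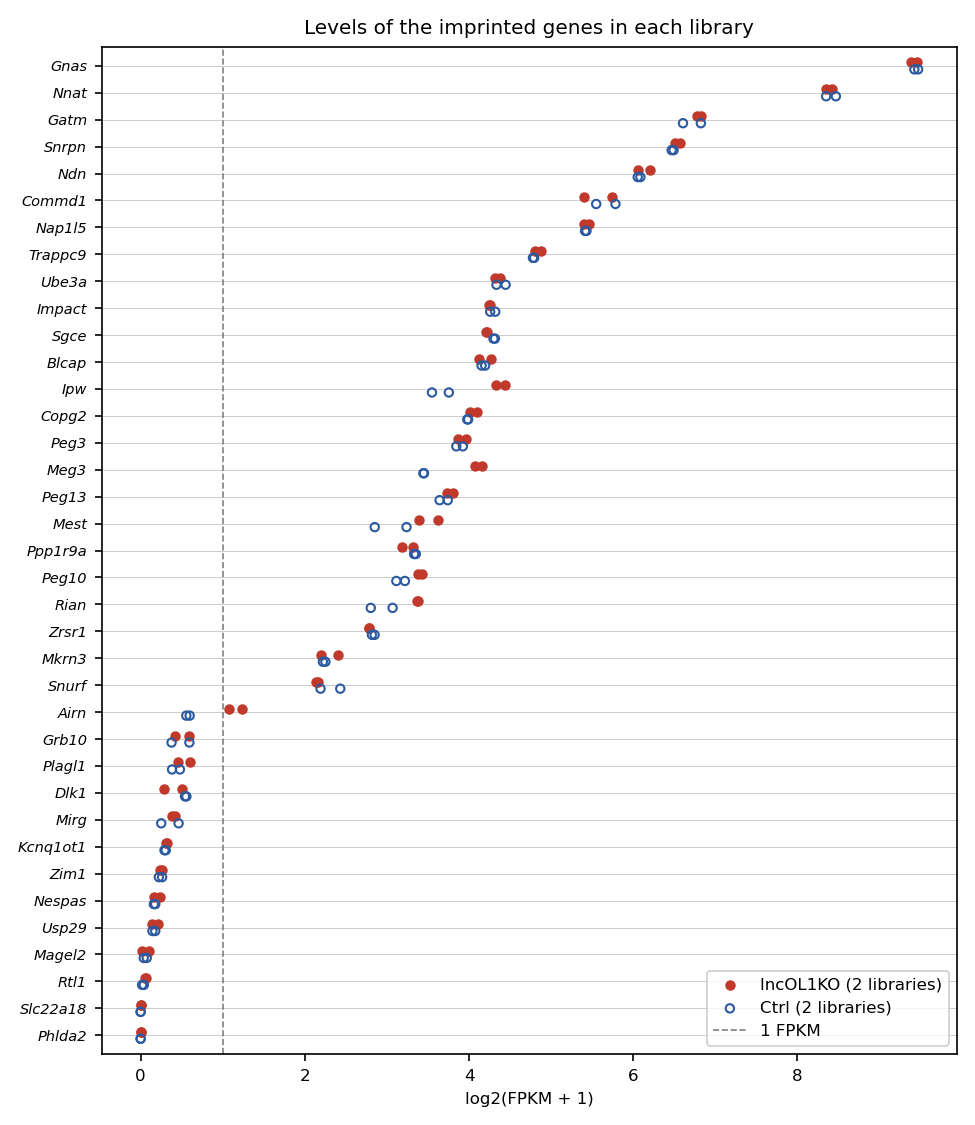
Level of each of the 37 members in each library on the log2(FPKM + 1) scale, lncOL1KO filled red above Ctrl open blue, ordered by mean level, with the dashed line at 1 FPKM. Levels run from Gnas near 690.9 FPKM to 2 genes listed at 0, and the groups separate visibly in Ipw, Meg3, Mest, Peg10, Rian and Airn.

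Across all members, 17 averaged 10 FPKM or more, 7 lay from 1 to under 10, 11 lay above 0 and under 1, and 2 were listed at 0. Of the 24 tested, 8 had both lncOL1KO libraries above both Ctrl libraries and 4 had both below, against 22.6% and 20.7% of all genes tested. These 24 passed a minimum on the mean of both groups, and the 13 below it are described by their values alone. Their log2 fold changes ran from -0.17 (Snurf) to 0.73 (Ipw), with a median of 0.04, against a median of 0.005 over all genes tested.

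The members were also split by parental origin. The median log2 fold change was 0.04 in 14 tested paternally expressed genes and 0.06 in 9 tested maternally expressed genes. Over all genes tested it was 0.005. In each of the 2 sets 1 gene was called higher and 0 lower, against 0.528% and 0.783% of all genes tested. Summed over the 22 paternally expressed genes the level was 645.3 and 665.8 FPKM in lncOL1KO and 655.6 and 626.9 FPKM in Ctrl libraries. The 13 maternally expressed genes summed to 277.0 and 267.0 FPKM in lncOL1KO and 253.3 and 264.7 FPKM in Ctrl libraries. The largest part of that sum was Gatm, at 108.6 and 112.1 FPKM in lncOL1KO and 96.4 and 112.3 FPKM in Ctrl libraries. Gatm is imprinted in placenta and Ube3a is biallelic in most cells other than neurons, so the sum need not reflect maternal copies here. The groups overlapped in the paternal sum. In the maternal sum both lncOL1KO libraries lay above both Ctrl libraries by a gap smaller than the spread within either group.

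A further count was by kind of transcript, a division made after the values were seen. Of 8 noncoding members 4 were tested. Their log2 fold changes were all above 0, with a median of 0.55, and 3 of them had groups that did not overlap. Meg3 and Rian, both among the 4, are neighbours in the same cluster. Changes above 0 were seen in 51.4% of all genes tested and in 58.3% of the 242 other lncRNA genes described below. The 20 tested protein-coding members had a median of 0.01, with 11 positive and 9 negative. No test of the difference between the kinds was run. Among the 242 other tested genes that RefSeq types as lncRNA the median was 0.04, both lncOL1KO libraries lay above both Ctrl libraries in 33.9% and below in 16.9%, and limma called 4 higher (1.65%) and 1 lower (0.413%). Among 10303 tested protein-coding genes the median was 0.004, with 22.6% above, 20.9% below, 0.466% called higher and 0.767% called lower.

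**Figure D4:**
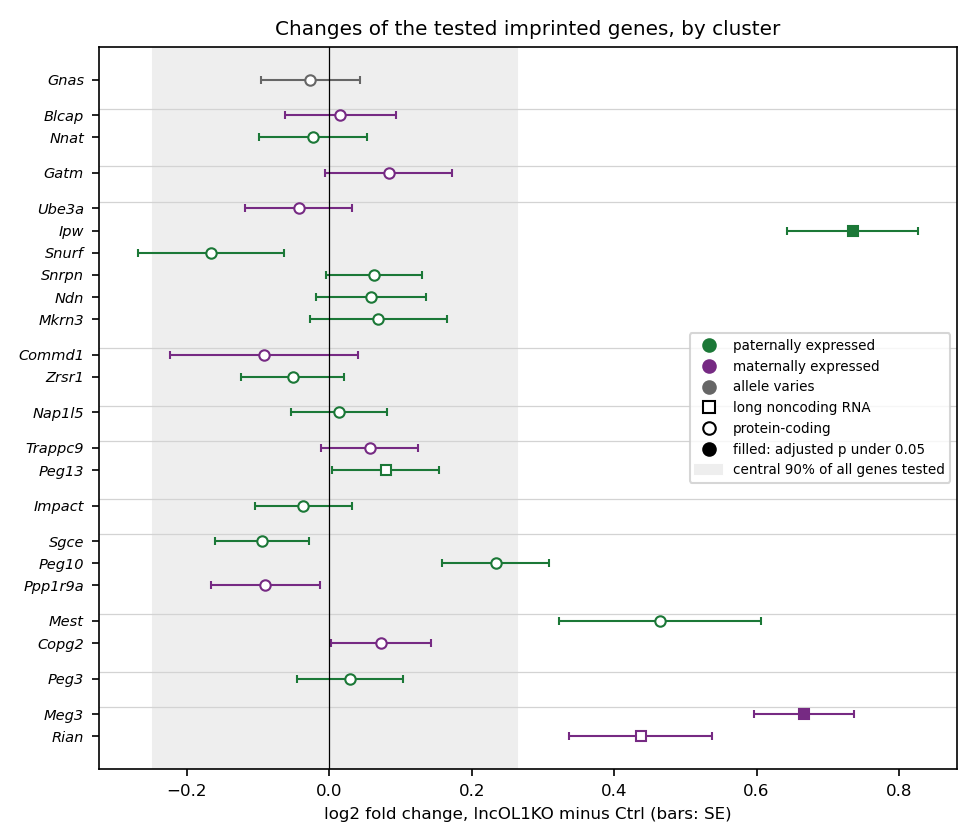
Log2 fold change, lncOL1KO minus Ctrl, with its SE for the 24 tested members, grouped by cluster; colour gives the expressed allele, squares are noncoding RNAs, filled symbols passed the limma test and the grey band holds the central 90% of all genes tested (-0.25 to 0.26). Ipw, Meg3, Mest and Rian lie to the right of the band, and no member lies to its left.

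Other imprinted genes were compared by a list of 42, of which 41 were in the files and 20 were tested. limma called Ddc lower and 0 genes higher, against 0.783% lower and 0.528% higher among all genes tested. The list's median was -0.02. Before adjustment 2 were higher and 2 lower at p under 0.05, against 7.13% and 6.58% of all genes tested. Ddc, the aromatic amino acid decarboxylase that is imprinted in mouse heart, lies on chromosome 11 with 32354 bases between it and Grb10. It had 30.1 and 29.4 FPKM in lncOL1KO and 67.2 and 65.7 FPKM in Ctrl libraries (log2 fold change -1.13, limma adjusted p = 0.00307), while Grb10 was at or below 0.509 FPKM. Cd81, a tetraspanin and the most abundant gene of the list, had 216.8 and 228.3 FPKM in lncOL1KO and 234.1 and 249.4 FPKM in Ctrl libraries (log2 fold change -0.12, limma adjusted p = 0.558). Dhcr7, the final enzyme of cholesterol synthesis and next in abundance, had 105.8 and 109.9 FPKM in lncOL1KO and 80.8 and 87.4 FPKM in Ctrl libraries (log2 fold change 0.36, limma adjusted p = 0.0900). Cdkn1c, a cell cycle inhibitor next to the silent Slc22a18 and Phlda2, had 45.5 and 49.5 FPKM in lncOL1KO and 44.9 and 37.4 FPKM in Ctrl libraries (log2 fold change 0.21, limma adjusted p = 0.452).

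No tested gene of those that set and keep imprints passed the test. Of 22 such genes 19 were tested, of which limma called 0, against 0.528% higher and 0.783% lower among all genes tested. Before adjustment 0 were higher and 1 was lower at p under 0.05, against 7.13% and 6.58% of all genes tested. The lower gene was Uhrf1, at 4.22 and 4.70 FPKM in lncOL1KO and 6.67 and 5.44 FPKM in Ctrl libraries (log2 fold change -0.36, limma adjusted p = 0.198). Of the 19 tested genes, 3 had both lncOL1KO libraries above both Ctrl libraries and 5 both below, against 22.6% and 20.7% of all genes tested. The list's median log2 fold change was 0.003. Trim28, the corepressor that ZFP57 recruits, had 106.5 and 112.4 FPKM in lncOL1KO and 108.3 and 101.9 FPKM in Ctrl libraries (log2 fold change 0.06, limma adjusted p = 0.817). Ehmt2, a histone methyltransferase, had 57.3 and 60.0 FPKM in lncOL1KO and 58.8 and 54.0 FPKM in Ctrl libraries (log2 fold change 0.06, limma adjusted p = 0.832).

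**Figure D5:**
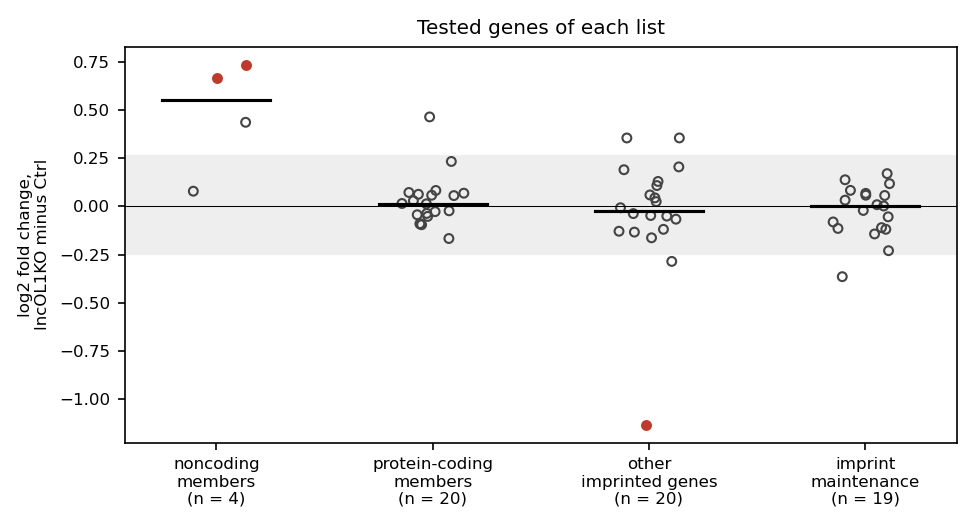
Log2 fold change, lncOL1KO minus Ctrl, of tested genes in 4 lists, with 1 point a gene, filled red where limma called it, black lines for medians and a grey band for the central 90% of all genes tested (-0.25 to 0.26). The median is 0.55 for the 4 noncoding members and between -0.02 and 0.01 for the other lists.

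Some markers of other cells also differed between the groups. Microglia markers summed to 15.8 and 20.1 FPKM in lncOL1KO and 7.18 and 7.73 FPKM in Ctrl libraries, with 4 of 10 tested and Tyrobp and Laptm5 called higher. Markers of fibroblasts, meningeal or mural cells summed to 19.1 and 18.6 FPKM in lncOL1KO and 10.1 and 10.95 FPKM in Ctrl libraries, most of it from Tagln and Acta2, both called higher. The other 8 of that list were under 0.7 FPKM and were not tested. In 6 of them (Col1a1, Col1a2, Col3a1, Dcn, Lum and Pdgfrb) both lncOL1KO libraries lay below both Ctrl libraries, with Col1a1 at 0.522 and 0.274 FPKM in lncOL1KO and 0.592 and 0.688 FPKM in Ctrl libraries. Lum was at 0 in both lncOL1KO libraries and at 0.0980 and 0.0453 FPKM in Ctrl libraries. Foxc1 was at 0 in both lncOL1KO libraries and Ctrl replicate 1, and at 0.0180 FPKM in Ctrl replicate 2. Neuron markers, of which 3 of 10 were tested, summed to 135.4 and 135.3 FPKM in lncOL1KO and 119.8 and 127.0 FPKM in Ctrl libraries, nearly all from Map2 and Tubb3. The neuronal transporter gene Slc17a7 was at 0 in both lncOL1KO libraries and Ctrl replicate 1, and at 0.0590 FPKM in Ctrl replicate 2. Rbfox3, Stmn2 and Slc17a6 were at or below 0.226 FPKM in all 4 libraries. The 4 cycling markers summed to 17.8 and 17.4 FPKM in lncOL1KO and 27.0 and 26.3 FPKM in Ctrl libraries, with Top2a called lower. Endothelial markers summed to at most 0.903 FPKM and Schwann cell markers to at most 0.820 FPKM in a library. The part of these cells in the rises of Meg3 and Ipw was not tested.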

How the data were processed

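RNA of 4 samples was sequenced by the submitters, per the labels' protocols from total RNA (Trizol) with the TruSeq kit for RNA. Per the submitters' processing notes the tools were Cuffdiff, Cufflinks, TopHat and CASAVA and the build was mm10, with no versions or roles. For annotation and strand setting, the sources used here give nothing. The authors deposited FPKM per gene for every sample, and a further deposited table of the authors holds pooled FPKM, a log2 fold ratio, p-values and q-values per gene, per the file headers. Read counts are not in these tables, so depth is unknown and the spread between libraries is the only measure of precision.

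Each table had 23931 rows. Rows of a symbol were summed, which concerned 258 symbols and no member, and 9 symbols whose status was not OK were dropped. Genes averaging 1 FPKM or more were fitted as log2(FPKM + 1) with limma 3.58.1 in R 4.3.3 (eBayes with trend, 2 residual and 4.6 prior degrees of freedom), and p-values were adjusted over all 11361. The fit was also run on simulated data with independent normal noise, which cannot show how well it performs on these libraries. Starts in the files were raised by 1 base to match browser positions. Alternatives were another pseudocount, other minimum levels, TPM or quantile scaling, the highest row of each symbol, a replicate block and each library left out. Members called, members with groups apart and a log2 fold change of at least 0.3, and the highest member of each cluster are given per library. Members, lists and the naming rule were chosen with earlier results of these data known.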

Additional observations from a re-analysis of the deposited data

How the results depend on the processing

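No member was called lower under any alternative run. Members called higher numbered 2, and 0 with no filter on low values and without any 1 library (range 0 to 0). The replicate numbers are shared between the groups, but deviations of same-numbered libraries did not correlate (r = -0.052 across genes). This correlation rests on 1 difference per group and cannot show whether the libraries were prepared as pairs. The labels do not settle it either, as they tie no library to a culture of its own. With the replicate number as a block 4 members were called higher, Rian (adjusted p = 0.0407) and Mest (adjusted p = 0.0207) joining Meg3 and Ipw. Over all genes, 60 were higher and 89 lower. Calls numbered 158 and 183 with the replicate block and 1 and 3 with no filter. Without 1 library they ranged from 11 to 16 higher and from 5 to 26 lower. A lone sample left in a group is assumed to vary like the other group. With 1 library left out the median ranged from 0.013 to 0.072 in paternally and from 0.0252 to 0.0804 in maternally expressed members. In uncalled genes the log2 fold change changed sign with some libraries left out. It ranged from -0.264 to 0.0804 in Commd1, from -0.0253 to 0.192 in Gatm, from -0.0585 to 0.0050 in Gnas, from -0.0156 to 0.0432 in Nap1l5, from -0.0818 to 0.0368 in Nnat and from -0.0171 to 0.0765 in Peg3. The cause was not tested. TPM scaling, quantile normalization, a pseudocount of 0.1 FPKM, a minimum of 0.1 FPKM and the highest row of each symbol kept 2 members called.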
